A study of Mus musculus with 7 samples.

Results

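Translation initiation and elongation factors are the proteins that load ribosomes onto mRNA and move them along it. They were taken here as every gene of the array annotation whose symbol starts with Eif1, Eif2, Eif3, Eif4, Eif5, Eif6, Eef1 or Eef2, without the eIF2 kinases (Eif2ak genes) and the kinase Eef2k. The rule found 53 genes with 90 probes, of 16593 named genes and 25697 probes on the array, and 43 of the 53 genes could be tested. The cells were megakaryocyte-erythroid progenitors (MEP), sorted as cells low for lineage markers, CD34 and CD16/32, positive for c-Kit and negative for Sca-1. The double knockout (DKO) group held 3 arrays from mice without SSB1 and SSB2, the single-stranded DNA binding proteins now named Nabp2 and Nabp1, and the control group held 4 arrays from WT mice. All mice were female and of the C57BL/6 strain. No source used here gives the age of the mice, how the genes were deleted or how many animals an array stands for, so p-values measure the spread between these samples, which may be technical.

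Initiation begins when eIF2, carrying GTP and the initiator tRNA, joins the small ribosomal subunit together with eIF1, eIF1A, eIF3 and eIF5. The cap-binding protein eIF4E, the scaffold eIF4G and the helicase eIF4A recruit this complex to the mRNA, and after start codon choice eIF5 triggers GTP hydrolysis, eIF5B joins the large subunit and eIF2B reloads eIF2 with GTP. In elongation eEF1A brings aminoacyl-tRNAs, its exchange factor eEF1B recharges it and eEF2 moves the ribosome on. Red cell precursors depend on this machinery for globin synthesis and control it through phosphorylation of eIF2 by the heme-regulated kinase.

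Values below are log2 signals after background correction and quantile normalization over the 7 arrays, unless they are named as signals, and a log2 change is the DKO mean minus the control mean. The DKO arrays were the brighter ones, with a mean signal over all probes of 650.6 to 669.8 against 443.1 to 615.3 on control arrays, and 41.2% to 43.42% of probes detected against 36.58% to 40.26%. Quantile normalization takes out such a difference, so a rise or a fall is relative to the other genes of the same array. In a bulk sample, fewer cells of a type and less RNA per cell cannot be told apart. Nabp2, the targeted Ssb1 gene, read 7.13, 7.09 and 7.05 on DKO arrays against 9.35, 9.17, 8.60 and 9.38 on control arrays (adjusted p = 0.000203, limma), and the single Nabp1 probe was not well above background on any array. All 7 of the progenitor markers on the array (Gata1, Klf1, Epor, Tfrc, Zfpm1, Gfi1b and Itga2b) were detected on all arrays, with a summed normalized signal of 29500 to 30800 in DKO and 25700 to 33300 in controls. Of these 7, 1 was higher (Itga2b, log2 change 1.99, adjusted p = 0.00133) and 0 lower, while Gata1 at -0.48 (adjusted p = 0.0524) and Klf1 at -0.32 (adjusted p = 0.0522) did not pass and did not overlap between the groups. Of the Y-linked genes, Eif2s3y, itself a translation factor gene, and Kdm5d were detected on no array, whereas Uty was detected on 1 DKO and 3 control arrays. The 5 B-lineage markers on the array (Cd79a, Cd79b, Vpreb1, Vpreb3, Ebf1) were all lower in DKO, with a sum of 186 to 294 against 839 to 1820 in controls. Of the 4 red cell markers 3 were lower, with a sum of 2170 to 3420 against 5780 to 10700, and of the 7 neutrophil and monocyte markers 3 were higher and 1 lower, with a sum of 1750 to 3460 against 891 to 1830. The other lists moved less: platelet markers summed to 1140 to 1820 against 830 to 2520 (1 of 5 higher), T and NK markers to 451 to 976 against 332 to 704 (0 of 5, with Cd3e, Cd3g and Cd8a detected on no array), mast and basophil markers to 161 to 209 against 116 to 199 (1 of 4 higher), and the markers the gate should lack to 94.2 to 97.9 against 79.4 to 96.6 (1 of 3 higher). The gate marker called higher was Fcgr2b, detected on 3 DKO and 0 control arrays, so its call sets DKO values against background. With values raised to the detection floor of each array, the log2 change of Fcgr2b was -0.07, which shows no rise. The part of these cell type differences in the results on translation factors was not tested.

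Translation factors did not move as a block. Of the 43 tested genes, 6 rose and 8 fell in DKO progenitors, which is 32.6% of them, and 27.2% of all 7547 genes tested changed (14.4% higher and 12.8% lower). The median log2 change was -0.04 over the 43 genes and 0.01 over all genes, and the median absolute change was 0.316 and 0.289. The genes that rose were Eif4e3, Eif4a1, Eif1ad, Eif1a, Eif5 and Eif4a2. Those that fell were Eef1akmt1, Eif3h, Eif2b2, Eif4ebp1, Eif6, Eif4e2, Eif3k and Eif2b1. The DKO and control values did not overlap for any of these 14 genes, nor for 7 of the 29 that did not pass, which makes 48.8% of the tested members against 38.5% of all genes tested. Of the 29 genes that did not pass, 28 had a 95% interval of the log2 change that lay within 1 of 0, the exception being Eef2. This bound is wide, since of the 14 changed genes only Eif4e3 and Eef1akmt1 changed by more than 1. It does not show that the 28 are unchanged.

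**Figure D1:**
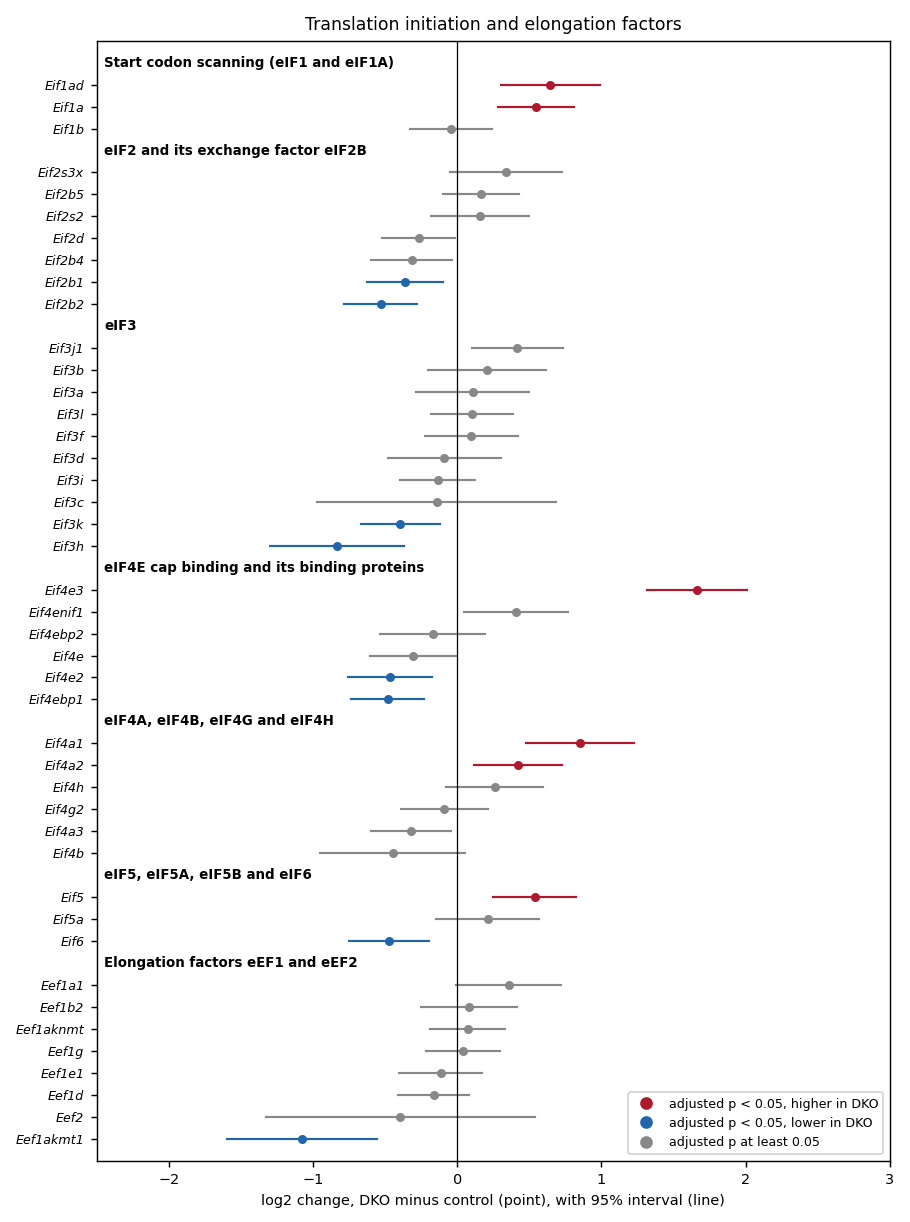
Log2 change, DKO minus control, of the 43 tested translation factor genes (points) with 95% intervals (lines), ordered by role. Red marks the 6 genes that rose, blue the 8 that fell and grey the 29 that did not pass the threshold; the largest change is that of Eif4e3 at 1.66.

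**Figure D2:**
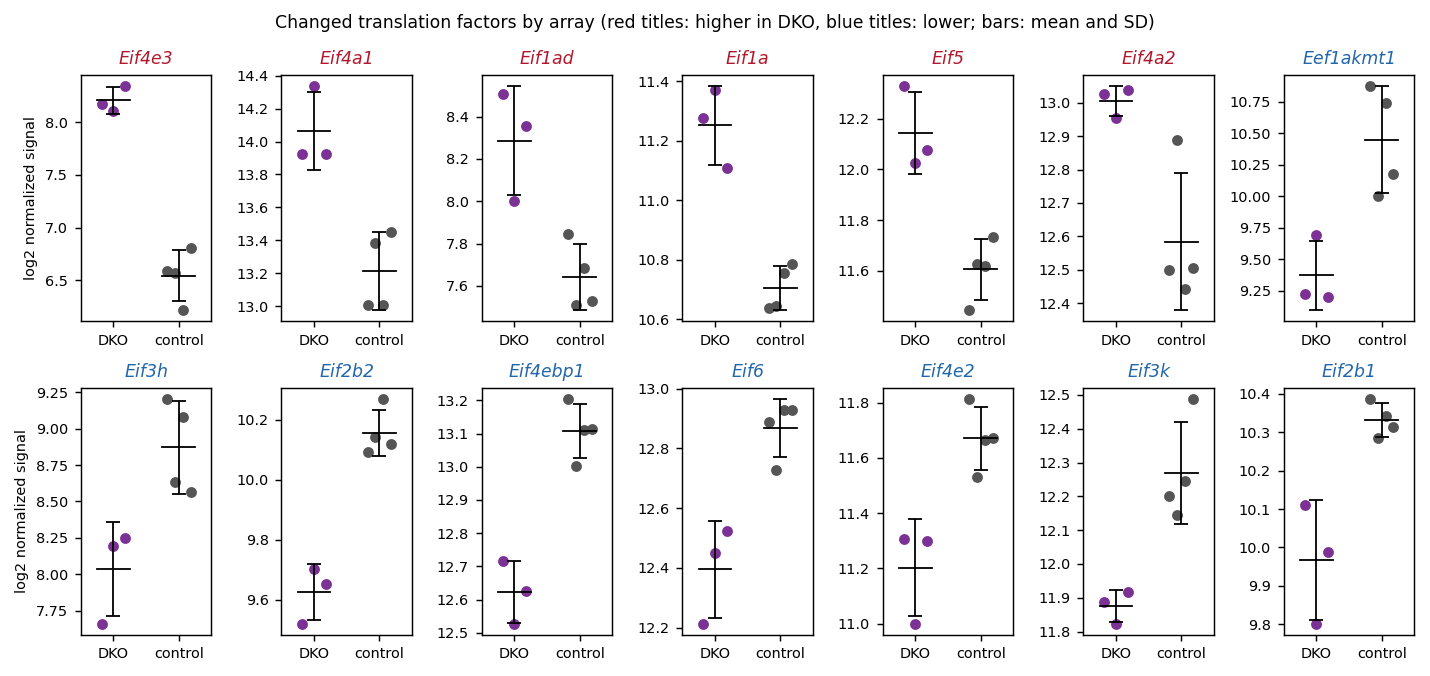
Log2 normalized signal of the 14 changed genes on each array (points), with mean and SD, DKO (n = 3) to the left of control (n = 4). In every panel the DKO points lie apart from the control points, and the axes do not start at 0 and differ between panels.

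In the signals as deposited, before any scaling, the mean signal was higher in DKO for 39 of the 43 genes (90.7%) and for 93.1% of all genes tested, since the DKO arrays were brighter. All DKO signals lay above all control signals for 16 of the 43 genes (37.2%), against 43.9% of all genes. These 16 were the 6 genes that rose and 10 that did not pass, among them Eif1b at a normalized change of -0.04, so the deposited signals do not set the 6 apart. Of the 8 genes that fell, 4 (Eif3h, Eif4ebp1, Eif6 and Eef1akmt1) had a lower mean signal in DKO, and 0 had all DKO signals below all control signals. The share of all genes with all DKO signals below was not counted, so this 0 does not set the 8 apart.

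The cap-binding proteins held the largest change. Eif4e3, a member of the eIF4E family that binds the cap in an atypical way, rose 3.17-fold in DKO progenitors. It read 8.17, 8.10 and 8.35 on the DKO arrays against 6.59, 6.57, 6.22 and 6.81 on the control arrays, so that the groups were far apart (log2 change 1.66, SE 0.154, adjusted p = 0.000215). The signals behind these values were 507.4, 446.2 and 543.0 in DKO against 181.6, 170.3, 155.6 and 239.8 in controls. A second probe, detected on 3 DKO and 2 control arrays, rose by 1.61 (adjusted p over the kept probes = 0.000456), and the third was detected on 2 DKO and 0 control arrays and was not tested. The size depends on the background correction: the change was 0.96 without it and 0.89 in the authors' processed table. Eif4e3 was the only translation factor that kept its call in each of the 17 alternative fits, array brightness as a covariate included (log2 change 1.33, adjusted p = 0.0266). That last fit cannot tell brightness from group.

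Of the other 5 tested genes around the cap, 2 fell and 3 did not pass. With Eif4e3 this is 50% of 6 genes, against 27.2% of all genes tested, and so few genes do not set the family apart. Eif4e2, a cap-binding relative of eIF4E known as a repressor of translation, read 11.31, 11.001 and 11.30 in DKO against 11.81, 11.53, 11.67 and 11.67 in controls (log2 change -0.47, SE 0.130, adjusted p = 0.0265). All 3 of its probes were lower, by 0.47, 0.66 and 0.27 on the log2 scale, and 2 of them passed. Leaving out a DKO array, or control array 1 or 3, ended its call (adjusted p 0.0508 to 0.0848). Eif4ebp1, the inhibitor that sequesters eIF4E until mTOR phosphorylates it, read 12.72, 12.53 and 12.63 in DKO against 13.20, 13.004, 13.11 and 13.11 in controls (log2 change -0.48, SE 0.114, adjusted p = 0.0144, or 0.0549 without DKO array 3). Under median scaling over all probes neither passed, with Eif4e2 at -0.05 (adjusted p = 0.865) and Eif4ebp1 at -0.17 (adjusted p = 0.578). That scaling rests on undetected probes, as described below. Eif4e itself, the main cap-binding protein, had a log2 change of -0.31 (95% interval -0.61 to -0.01, adjusted p = 0.118), with DKO values of 7.35, 7.43 and 7.19 all below the control values of 7.48, 7.72, 7.50 and 7.82. The related inhibitor Eif4ebp2 was at -0.17 (adjusted p = 0.454). Eif4enif1, which shuttles eIF4E into the nucleus, was at 0.41 (adjusted p = 0.0879), and its dimmer probe passed at 0.56 (adjusted p over the kept probes = 0.0259).

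Among the helicase group, the RNA helicases Eif4a1 and Eif4a2 rose. Eif4a1 read 13.93, 14.34 and 13.93 in DKO against 13.01, 13.38, 13.01 and 13.45 in controls, with every DKO array above every control array (log2 change 0.85, SE 0.167, adjusted p = 0.00721). Its dimmer probe was at 0.15 (adjusted p over the kept probes = 0.420), so the rise rests on a single probe. The near-identical paralog Eif4a2 read 13.03, 12.95 and 13.04 in DKO against 12.50, 12.89, 12.44 and 12.51 in controls (log2 change 0.42, SE 0.137, adjusted p = 0.0465). Leaving out any array other than control 2 ended its call (adjusted p 0.0798 to 0.136), and its other probe was at -0.63 (adjusted p over the kept probes = 0.0875), opposite in sign. Eif4a3, a helicase of this family that works in the exon junction complex, was at -0.32 (adjusted p = 0.0810). The helicase stimulators Eif4b and Eif4h were at -0.45 (adjusted p = 0.166) and 0.26 (adjusted p = 0.224), and Eif4g2, an eIF4G relative without a site for eIF4E, was at -0.09 (adjusted p = 0.642). When each array was scaled to its median over the probes detected on all arrays, called median scaling over detected probes below, Eif4a1 was at 0.45 (adjusted p = 0.0610) and Eif4a2 at 0.07 (adjusted p = 0.744).

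Of 3 tested genes of the eIF1 and eIF1A family, 2 rose and 1 did not pass. Among all genes tested 14.4% rose, and 3 genes are too few to set the family apart. Eif1a, which encodes eIF1A, read 11.28, 11.37 and 11.11 in DKO against 10.64, 10.64, 10.75 and 10.78 in controls (log2 change 0.55, SE 0.118, adjusted p = 0.0103). Eif1ad, a protein with an eIF1A-like domain, read 8.50, 8.001 and 8.35 in DKO against 7.85, 7.51, 7.68 and 7.53 in controls (log2 change 0.64, SE 0.153, adjusted p = 0.0151). The call of Eif1ad was lost without DKO array 1 (adjusted p = 0.0613) or DKO array 3 (adjusted p = 0.0586), and that of Eif1a under median scaling over detected probes (log2 change 0.37, adjusted p = 0.0505). Eif1b, a close relative of eIF1, was at -0.04 (95% interval -0.33 to 0.24, adjusted p = 0.824). In the family of eIF5, eIF5A, eIF5B and eIF6, 1 of 3 tested genes rose and 1 fell, again too few to set against all genes. The gene that rose was Eif5, the GTPase-activating protein of eIF2, which read 12.33, 12.03 and 12.08 in DKO against 11.44, 11.63, 11.62 and 11.73 in controls (log2 change 0.54, SE 0.129, adjusted p = 0.0155, or 0.0629 without DKO array 1). Its other probes were at 0.20 and 0.23 and did not pass, the mean of its probes was at 0.32 (adjusted p = 0.149), and under median scaling over detected probes Eif5 was at 0.27 (adjusted p = 0.107).

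Subunits of eIF2B, the exchange factor that reloads eIF2 with GTP, included the genes that fell in the eIF2 group. The tested subunit genes of eIF2 itself, Eif2s2 and Eif2s3x, did not pass, and the alpha subunit Eif2s1 had no probe in the annotation. Eif2b2 read 9.52, 9.70 and 9.65 in DKO against 10.09, 10.14, 10.27 and 10.12 in controls (log2 change -0.53, SE 0.113, adjusted p = 0.00989), although it was at 0.08 under median scaling over all probes. Eif2b1 read 10.11, 9.80 and 9.99 in DKO against 10.39, 10.28, 10.34 and 10.31 in controls (log2 change -0.36, SE 0.118, adjusted p = 0.0468), and it was at 0.23 under that scaling. The Eif2b1 call was lost whichever array was left out (adjusted p 0.0596 to 0.144), while its dimmer probe was lower by 0.77 (adjusted p over the kept probes = 0.00610). Eif2b4 was at -0.32 (adjusted p = 0.0895), with all DKO values below the controls. Eif2b5, the catalytic subunit, was at 0.17 (95% interval -0.10 to 0.43, adjusted p = 0.315), and its 3 probes spanned -0.21 to 0.17. Of eIF2, the gamma subunit Eif2s3x was at 0.34 (adjusted p = 0.170) and the beta subunit Eif2s2 at 0.16 (adjusted p = 0.460). Another Eif2s2 probe was at -0.63 (adjusted p over the kept probes = 0.0566). Eif2d, which delivers initiator tRNA without eIF2, was at -0.27 (adjusted p = 0.104), and its dimmer probe passed at -0.48 (adjusted p over the kept probes = 0.0303).

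The promoter regions of both eIF2B subunits that fell are shown beside those of 2 genes that rose, Eif4a1 and Eif5, so that members that moved in opposite directions can be compared. Each runs from 150 bases before to 30 after the annotated RefSeq start in GRCm38.p6, 5′ to 3′ on the strand of the gene, and capitals mark matches on either strand to CGGAAG, the core bound by ETS factors, or to the core of the interferon-stimulated response element, which is GAAA, any 2 bases and GAAA again. No window shown holds either of the other motifs counted below. The interferon-induced kinase gene Eif2ak2, described below, is added because its window holds the interferon core.
Eif2b1 (chr5:124579102-124579281, minus strand): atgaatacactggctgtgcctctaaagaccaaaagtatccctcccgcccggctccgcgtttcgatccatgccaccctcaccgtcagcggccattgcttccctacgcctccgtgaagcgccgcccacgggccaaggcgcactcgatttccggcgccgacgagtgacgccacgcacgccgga
Eif2b2 (chr12:85219331-85219510, plus strand): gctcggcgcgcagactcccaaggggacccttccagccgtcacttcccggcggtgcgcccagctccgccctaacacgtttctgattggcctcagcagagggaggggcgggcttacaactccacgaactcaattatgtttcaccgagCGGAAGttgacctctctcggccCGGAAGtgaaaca
Eif4a1 (chr11:69672394-69672573, minus strand): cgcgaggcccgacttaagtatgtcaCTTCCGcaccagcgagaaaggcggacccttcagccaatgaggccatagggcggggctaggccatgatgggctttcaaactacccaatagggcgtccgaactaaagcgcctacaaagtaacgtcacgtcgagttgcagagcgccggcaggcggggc
Eif5 (chr12:111537951-111538130, plus strand): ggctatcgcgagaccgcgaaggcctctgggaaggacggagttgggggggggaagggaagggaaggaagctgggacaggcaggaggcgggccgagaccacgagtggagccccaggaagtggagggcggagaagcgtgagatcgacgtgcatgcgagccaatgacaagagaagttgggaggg
Eif2ak2 (chr17:78882543-78882722, minus strand): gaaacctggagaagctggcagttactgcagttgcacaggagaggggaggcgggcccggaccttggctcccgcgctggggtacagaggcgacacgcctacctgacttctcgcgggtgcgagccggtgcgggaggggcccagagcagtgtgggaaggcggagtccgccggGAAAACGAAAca

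Promoter entries were matched for 40 of the 53 genes, among them 4 that rose, 4 that fell and 25 that did not pass. The rest of the 40 were not tested, so a share of the 40 and a share of tested genes rest on unlike sets. Over the whole 300-base entry, from 250 bases before to 50 after the start, CGGAAG was found in 52.5% of the 40 genes, against 38.6% of the 6256 tested genes with an entry and 18.8% of all 27025 genes with one. It was present in 3 of the 4 genes that rose, 2 of the 4 that fell and 13 of the 25 others. CACGTG, the E-box bound by Myc and its relatives, was found in 27.5% of the 40 genes, against 12.3% of tested genes and 8.09% of all genes, and in 1 gene that rose, 1 that fell and 8 that did not pass. The interferon-stimulated response element core was found in 2 of the 40, both genes that did not pass, or 5% against 3.82% of tested genes and 3.99% of all genes. TGATGNAAT, the composite element bound by ATF4 with a C/EBP factor, was found in 0 of the 40, in 0.543% of tested genes and in 1.08% of all genes. The motifs were chosen after promoter sequences of these genes had been seen, and a match describes letters in the window only.

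Of 10 tested subunit genes of the eIF3 complex, the scaffold on the small subunit, 2 fell and 0 rose. This is 20% changed, against 27.2% of all genes tested, and does not set the complex apart. Eif3h read 7.66, 8.20 and 8.25 in DKO against 9.20, 8.63, 9.08 and 8.57 in controls (log2 change -0.84, SE 0.206, adjusted p = 0.0171, or 0.0644 without DKO array 1). Eif3k read 11.89, 11.82 and 11.92 in DKO against 12.20, 12.15, 12.25 and 12.49 in controls (log2 change -0.39, SE 0.123, adjusted p = 0.0405), a call lost whichever array was left out (adjusted p 0.0504 to 0.103). Eif3j1, a loosely bound subunit, was at 0.42 and just missed the threshold (adjusted p = 0.0527), with no overlap between the groups. The core subunits Eif3a, Eif3b and Eif3c were at 0.11, 0.21 and -0.14, with adjusted p of 0.675, 0.429 and 0.794. For Eif3c the 95% interval was wide, from -0.97 to 0.69. Eif3d, Eif3f, Eif3i and Eif3l lay between -0.14 and 0.10, and the 3 Eif3i probes between -0.21 and -0.14. Under median scaling over all probes Eif3h was at -0.16 (adjusted p = 0.588) and Eif3k at -0.02 (adjusted p = 0.952).

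Eif6, which keeps the large subunit from joining the small one too early, fell. It read 12.21, 12.45 and 12.52 in DKO against 12.89, 12.73, 12.93 and 12.93 in controls (log2 change -0.47, SE 0.125, adjusted p = 0.0222). The call was lost without DKO array 1 (adjusted p = 0.0908) or control array 3 (adjusted p = 0.0518), and Eif6 was at -0.15 under median scaling over all probes (adjusted p = 0.603). The 2 probes of Eif5a, a hypusine-bearing factor that helps ribosomes past difficult peptide bonds, disagreed. The brighter one was at 0.21 (95% interval -0.15 to 0.57, adjusted p = 0.350). The dimmer one read 10.12, 8.97 and 10.37 in DKO against 10.59, 11.12, 10.89 and 11.06 in controls and passed at -1.09 (adjusted p over the kept probes = 0.0271).

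Among 8 tested genes of the elongation group, 1 fell and 0 rose, or 12.5% changed against 27.2% of all genes tested. With so few genes this does not set the group apart. The gene that fell encodes a modifying enzyme. Eef1akmt1, a methyltransferase known from human cells to modify a lysine of eEF1A, fell 2.11-fold. It read 9.22, 9.69 and 9.20 in DKO against 10.88, 10.004, 10.74 and 10.18 in controls (log2 change -1.08, SE 0.231, adjusted p = 0.0101). It kept its call without any 1 array (adjusted p 0.00830 to 0.0411) and was at -0.49 under median scaling over all probes (adjusted p = 0.0656). Eef1aknmt, another methyltransferase of eEF1A, was at 0.07 (adjusted p = 0.670), and its 5 probes spanned -0.38 to 0.50. The subunits of the exchange factor did not pass: Eef1g was at 0.04 (95% interval -0.22 to 0.30), Eef1b2 at 0.08 (-0.25 to 0.41) and Eef1d at -0.16 (-0.41 to 0.08). The 3 Eef1b2 probes spanned -0.07 to 0.45, and 0 of them passed. Eef1e1, which sits in the multi-tRNA synthetase complex, was at -0.12 (adjusted p = 0.530). Eef1a1, the main aminoacyl-tRNA carrier, was at 0.36 (95% interval -0.01 to 0.72, adjusted p = 0.133). Its only probe was dim, with signals of 316.9 to 358.9 in DKO and 173 to 248.2 in controls. Those of Eef1g were 24195.8 to 31093.4 over all arrays.

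Eef2, the translocation factor, varied most within the DKO group. It read 9.57, 8.06 and 10.18 in DKO against 9.46, 9.50, 9.64 and 10.07 in controls (log2 change -0.40, SE 0.415, adjusted p = 0.506). Its other probes gave the same order in DKO, at 9.09, 7.60 and 9.48 for one and 8.64, 6.91 and 8.91 for the other, so that DKO array 2 was low with all 3 probes. DKO array 2 was the lowest of the DKO arrays for 23 of the 43 genes (53.5%) and for 32.3% of all genes tested. The median of the 43 genes relative to the control mean was -0.149 on DKO array 2, 0.0191 on DKO array 1 and 0.0689 on DKO array 3, and it was -0.0854 to 0.0948 on the control arrays. Without DKO array 2 the median log2 change of the 43 genes was 0.05.

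Of the 90 probes, 71 were kept, and 7 of these were higher and 11 lower at the threshold. This is 25.4% of the kept probes of translation factors, against 26.0% of all 10091 kept probes. Of 19 genes with several kept probes, 12 had probes of a single sign and 7 had probes of opposite sign (Eef1aknmt, Eef1b2, Eif2b5, Eif2s2, Eif4a2, Eif4g2 and Eif5a). What each probe binds along its transcript was not analysed here.

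**Figure D3:**
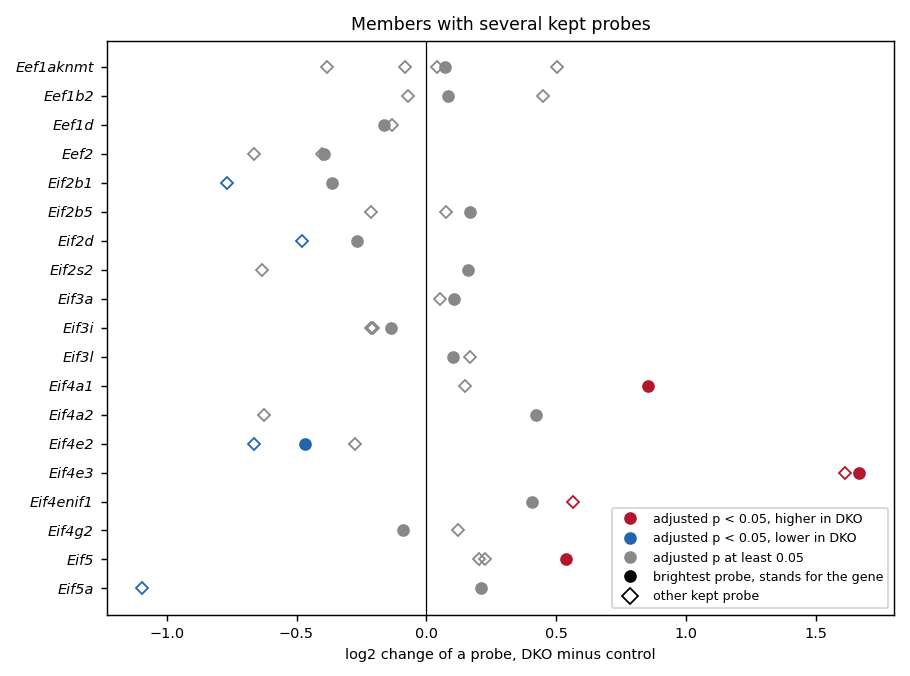
Log2 change, DKO minus control, of each kept probe for the 19 translation factor genes with several, on a test over all kept probes. Filled circles are the brightest probe, which stands for the gene, and open diamonds the others. The 2 probes of Eif4e3 lie together at 1.66 and 1.61, whereas those of Eif5a lie at 0.21 and -1.09.

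The remaining 10 genes were not tested, because no probe was detected on 3 arrays: Eif1ax, Eif2s3y, Eif3e, Eif3m, Eif4e1b, Eif4ebp3, Eif5a2, Eif5b, Eef1a2 and Eef1akmt2. All tested genes were detected on all 7 arrays, so none passed the filter through one group alone. A dim probe sets no level for its gene, and Eif1, Eif2s1, Eif4g1 and other factors without a probe in the annotation were not analysed here.

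Partners of the translation factors were read from a list of 53 regulators and cofactors, of which 38 were tested. Of these, 8 rose and 2 fell (26.3%, near the 27.2% of all genes). Among the 8, Paip1 was detected on DKO arrays only. The kinase Eif2ak2 (PKR), which is induced by interferon and phosphorylates eIF2 on sensing double-stranded RNA, rose 2.26-fold. It read 10.31, 10.11 and 10.02 in DKO against 8.90, 8.72, 9.27 and 9.004 in controls (log2 change 1.17, SE 0.152, adjusted p = 0.00133). The heme-regulated kinase Eif2ak1 was at 0.27 (95% interval -0.10 to 0.64, adjusted p = 0.255), although it passed at 0.93 under median scaling over all probes (adjusted p = 0.000374). The endoplasmic reticulum kinase Eif2ak3 (PERK) was at -0.27 (adjusted p = 0.138), or 0.39 under that scaling, and the amino acid sensing kinase Eif2ak4 was not tested for want of a detected probe.

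Of 8 tested genes in the list of eIF2 kinases and stress response genes, 1 rose and 2 fell. This is 37.5%, against 27.2% of all genes tested, and so few genes do not set the list apart. The genes that fell were Atf4 and Ppp1r15b. Atf4, the transcription factor whose mRNA is translated when eIF2 is phosphorylated, read 7.98, 7.63 and 7.97 in DKO against 8.88, 8.75, 8.24 and 8.53 in controls (log2 change -0.74, SE 0.173, adjusted p = 0.0142, or 0.0503 without DKO array 2). Ppp1r15b, the constitutive phosphatase subunit that removes the phosphate from eIF2, read 7.19, 7.49 and 7.09 in DKO against 7.90, 8.06, 8.28 and 7.92 in controls (log2 change -0.78, SE 0.147, adjusted p = 0.00600). Under median scaling over all probes these were at -0.08 and -0.11, with adjusted p of 0.791 and 0.705. Its stress-induced counterpart Ppp1r15a was at 0.03 and the stress factor Ddit3 at -0.08, with adjusted p of 0.910 and 0.811.

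Among poly(A)-binding genes 2 of 4 tested rose, and among genes of recycling, reinitiation and termination 3 of 11, against 14.4% of all genes. In both, 0 fell, against 12.8% of all genes, and with so few genes these counts do not set either group apart. Pabpc1, the main cytoplasmic poly(A)-binding protein, read 13.01, 13.08 and 13.41 in DKO against 12.19, 12.66, 12.41 and 12.76 in controls (log2 change 0.66, SE 0.168, adjusted p = 0.0193, or 0.0809 without DKO array 3). With its probes averaged it was at 0.25 (adjusted p = 0.171), and under median scaling over detected probes at 0.31 (adjusted p = 0.125). Its activator Paip1 was detected on all 3 DKO arrays and on 0 of the 4 control arrays, where it was not well above background, which makes it at least 1.12-fold higher in DKO (adjusted p = 0.00320, or 0.309 under median scaling over detected probes). Paip1 passed the filter through the DKO arrays alone. Its call, counted in the 2 of 4 above, thus sets DKO values against background. Gspt2, a release factor of the eRF3 family, read 7.46, 6.70 and 7.04 in DKO against 5.79, 4.66, 4.59 and 4.88 in controls, where it was detected on 1 of 4 arrays (log2 change 2.09, SE 0.294, adjusted p = 0.00186, or 1.69 with values raised to the detection floor of each array, and 0.79 without background correction). Its close relative Gspt1 was at 0.20 (adjusted p = 0.344). The release factor Etf1 rose by 0.44, the scanning helicase Dhx29 by 0.51, the nuclear cap-binding protein Ncbp1 by 0.38 and the kinase Mtor by 0.41, with adjusted p of 0.0358, 0.0271, 0.0318 and 0.0389. Each of these 4 calls was lost without at least 1 DKO array and at least 1 control array (highest adjusted p 0.126 for Etf1, 0.0982 for Dhx29, 0.0955 for Ncbp1 and 0.157 for Mtor), and under median scaling over detected probes Etf1 was at 0.18 (adjusted p = 0.325). Eef2k, the kinase that inhibits eEF2, was at 0.06 (95% interval -0.44 to 0.56, adjusted p = 0.846).

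**Figure D4:**
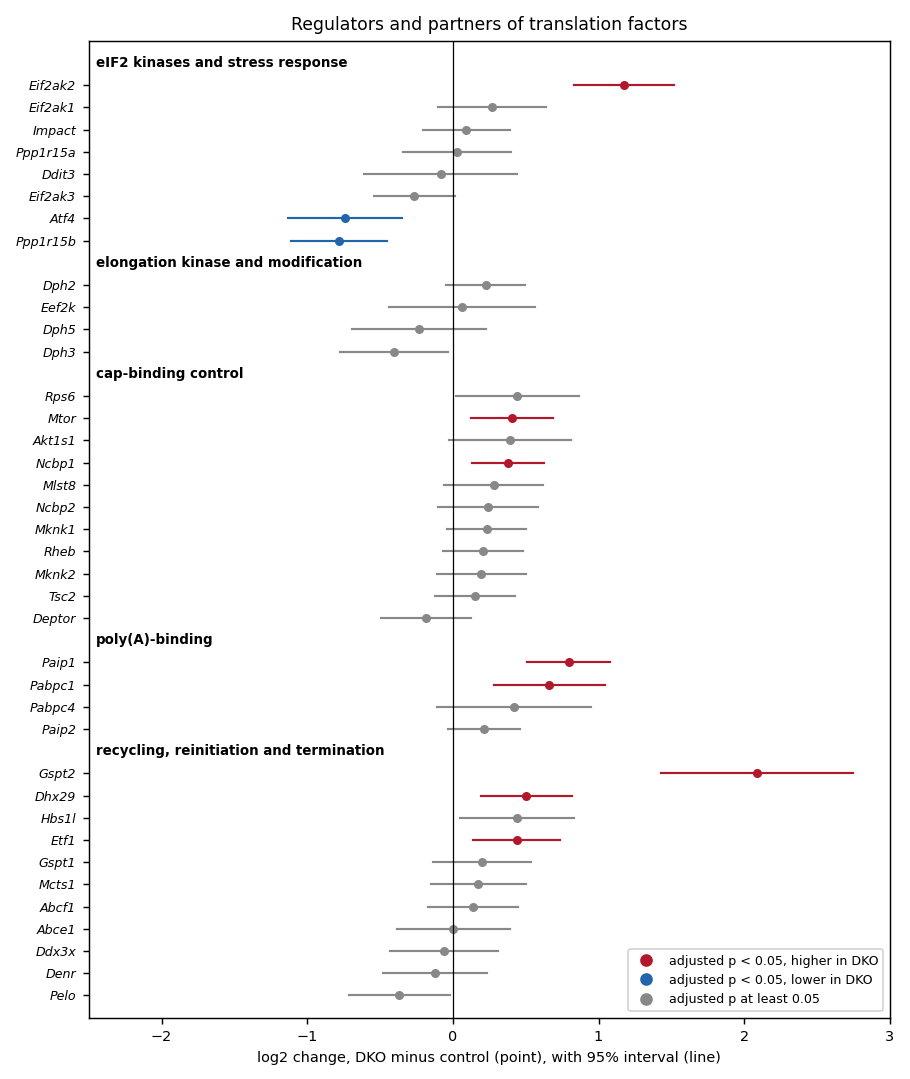
Log2 change, DKO minus control, of the 38 tested regulators and cofactors of translation factors (points) with 95% intervals (lines). The 8 genes that rose are in red, led by Gspt2 at 2.09 and Eif2ak2 at 1.17, and the 2 that fell, Atf4 and Ppp1r15b, are in blue.

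The direction of the calls depended on the scaling. With each array scaled to its median over all probes, 17 of the 43 translation factors were higher and 0 lower. This is 39.5% of them, against 51.5% of all genes tested. The median log2 change was 0.35 over these genes and 0.52 over all genes. At most 43.42% of probes were detected on an array, so the array median used for this scaling falls on an undetected probe. The 14 genes called in the reported setting all had an SE of 0.234 there, from a variance pooled over genes. With scaling to the probes detected on all arrays, 2 were higher and 14 lower, at a median of -0.32 against -0.14 over all genes. These calls are 37.2% of the translation factors, against 33.9% of all genes tested. Relative to the median gene, translation factors stood at -0.17 under both scalings and at -0.05 after quantile normalization. The value is the same under both by construction, since these scalings only subtract a constant from each array. With array brightness as a covariate, 1 gene (Eif4e3) rose and 0 fell, or 2.33% against 0.994% of all genes.

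**Figure D5:**
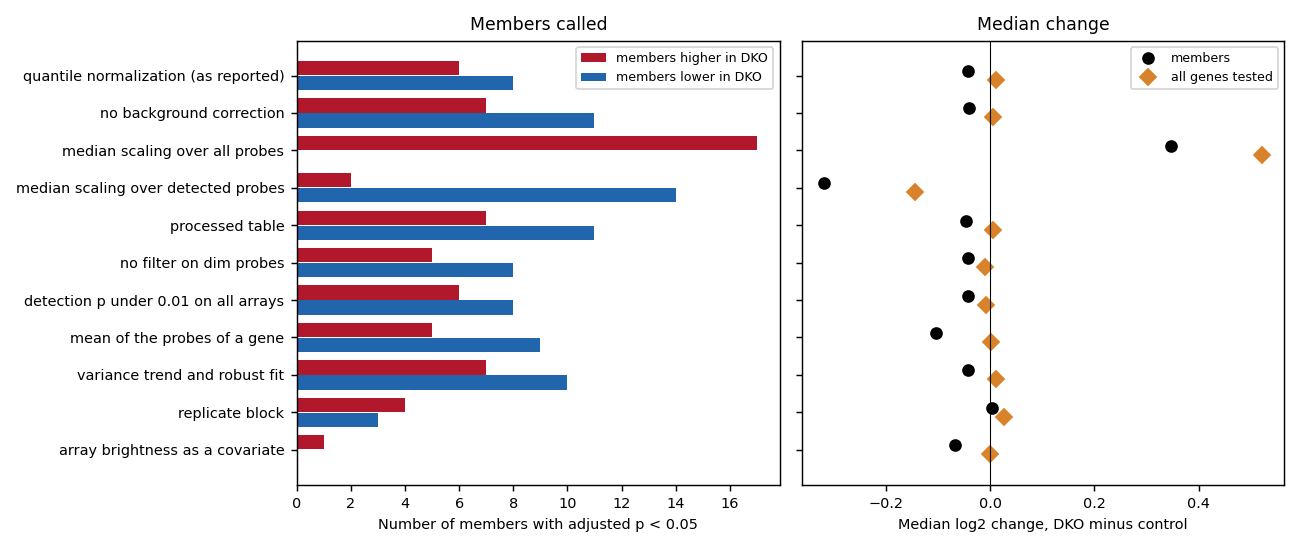
Left, number of translation factor genes called higher (red) and lower (blue) in DKO under the reported setting and 10 alternatives, on an axis from 0. Right, median log2 change of the tested translation factors (circles) and of all genes tested (diamonds): the median scalings move both, to 0.35 and 0.52 over all probes and to -0.32 and -0.14 over detected probes.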

How the data were processed

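RNA of 7 samples was read on Illumina MouseRef-8 v2.0 arrays after amplification to biotinylated cRNA, per the labels. The authors deposited probe signals, an intensity without background subtraction or normalization, and a detection p-value per signal, made with GenomeStudio per the submitters' processing notes; no source used here gives its version. They also deposited processed log2 values centred per probe on an unstated baseline (column medians 0.00164 to 0.00513); their group differences correlated at 0.9995 across probes with those of quantile-normalized log2 signals, so the direction is that of the signals. With limma 3.58.1 in R 4.3.3, neqc corrected the background from the detection p-values (offset 16) and quantile-normalized. Of 25697 probes, 23978 had 1 gene symbol, 0 several and 1719 none; 23962 gene IDs matched GRCm38.p6, and 0 symbols changed. Probes with detection p under 0.05 on at least 3 arrays were kept (10091), and the brightest kept probe stood for a gene (7547). The two-sided test was that of lmFit and eBayes, with p-values adjusted by Benjamini-Hochberg across the genes tested and a threshold of 0.05; other probes were fitted over all kept probes. A lower bound sets the bright group against the higher of a dim probe's value and its array's lowest detected value. The number of arrays limits the precision. The procedure was tested on simulated data.

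Every member was accounted for by name, with all array values for up to 14 changed members; of the regulators, up to 10 changed genes with the largest change, the eIF2 kinases and Eef2k were named. Gspt1, Ppp1r15a, Ddit3 and Mknk2 fall outside this rule and were chosen after their values were seen. The members and lists were chosen with earlier results of these data known. Alternatives covered background, scaling, filter, probe choice, variance model, replicate block, brightness and single arrays. Slide was not tried, since the files name none. Promoters are from RefSeq, GRCm38.p6.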

Additional observations from a re-analysis of the deposited data

Results flagged for a closer look

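Among 82 translation factors, regulators and the targeted gene checked, 4 had a control array far from the other 3, about as many as chance gives at 1 in 20 groups. Eif4a2 was at 12.89 in control array 2, against 12.44 to 12.51 in the other controls. Eif4b was at 5.84 in control array 1, against 6.28 to 6.32. The kinase Mknk2, which phosphorylates eIF4E, was at 11.11 in control array 1, against 11.50 to 11.52. Paip1 was at 4.76 in control array 4, against 4.56 to 4.59, all below background.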

How the results depend on the processing

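Of the 14 translation factors that changed, 5 (Eif4e3, Eif4a1, Eif1a, Eif2b2 and Eef1akmt1) passed whichever array was left out, 2 (Eif2b1 and Eif3k) passed in none of these 7 fits, and all 14 kept their sign in them. Leaving out an array gave 3 to 7 higher and 3 to 6 lower translation factors, a median of -0.059 to 0.054, 4 to 7 higher and 2 to 3 lower regulators, 1145 to 1921 changed genes and a Nabp2 change of -2.22 to -1.95. Median scaling over all probes gave 17 higher and 0 lower translation factors (median 0.35), 29 higher and 0 lower regulators and 3884 changed genes, of which 97.0% were higher against 52.9% as reported; there Eif2b1 was at 0.23 and Eif2b2 at 0.081. The median over all probes is that of an undetected probe. Scaling over detected probes gave 2 and 14 (median -0.32), with 5 higher and 4 lower regulators, 2562 changed genes and 30.5% of all calls higher. Brightness as a covariate, which goes largely with group, left 1 and 0 translation factors, 0 and 0 regulators and 75 changed genes. No background correction, the processed table and the variance trend each gave 4 lower regulators. Averaging all probes put Eif4a2 at -0.10. The replicate numbers did not pair the arrays (correlation of same-numbered deviations -0.169, -0.016 and 0.0277); with the replicate block 4 translation factors were higher and 3 lower, 4 regulators were higher, and 1355 genes changed. Causes were not tested. Slide as a block was not run, because the files give no slide. Signals near background limit dim probes, such as those of Paip1 and Gspt2.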

Other observations

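The genes outside the translation factors whose values over the 7 arrays followed Eif4e3 most closely were Elmo1, which acts in cell motility and engulfment, and the chromatin remodellers Smarca2 and Ino80. They rose by 1.55, 1.17 and 1.05 on the log2 scale, with adjusted p of 0.000424, 0.000336 and 0.000777. Since the arrays fall into 2 groups, this likeness is mostly a shared difference between DKO and control.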
